A study of Mus musculus with 6 samples.

Results

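Fetal, stress and atrial cardiomyocyte genes were followed in mouse hearts. The set was named by gene symbol and comprised Nppa, Nppb, Myh7, Acta1, Ankrd1, Rcan1, Myl4, Myl7 and Sln. 7 of the 9 genes were found among the 16229 listed genes, and all 7 were among the 12981 genes tested, those with a mean of at least 0 log2 CPM. Acta1 and Sln were not analysed here. The 6 libraries were poly-A RNA of hearts from wild-type male C57BL/6 mice aged 8 to 10 weeks. 2 libraries came from untreated mice (replicates 8 and 9), 2 from mice given rivaroxaban at 3 mg/kg for 7 days (14 and 15) and 2 from mice given dabigatran at 10 mg/kg for 7 days (10 and 12). Rivaroxaban inhibits coagulation factor Xa, dabigatran inhibits factor IIa (thrombin), and the drugs were compared at unequal doses, 1 dose each. The series concerns ischemia and reperfusion of the heart, and the extraction text describes infarct with surrounding tissue, but surgery is not stated for the untreated mice. Nor is it stated that each sample of a group is a mouse of its own. The p-values therefore measure only the spread between these samples, which may be technical. The test also draws the spread of each gene toward that of other genes of similar level.

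The genes of the set form what is often called the fetal gene programme. The embryonic ventricle makes natriuretic peptides, beta myosin and atrial myosin light chains, these fall after birth, and several of them return when ventricular muscle is overloaded, stretched or injured. The natriuretic peptides lower blood volume and pressure through guanylyl cyclase receptors, whereas Ankrd1 and Rcan1 are read as markers of mechanical load and of calcineurin signalling. In the adult heart Myl4, Myl7 and Sln are made mainly in the atria, so their level in a piece of heart also depends on how much atrial muscle it holds.

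Nppa and Nppb lie next to each other on chromosome 4, with 13516 bases between them, in the order Nppb (ENSMUSG00000029019, chr4:147985788-147987205) and Nppa (ENSMUSG00000041616, chr4:148000722-148002079), both on the plus strand of GRCm38. The sequences below are shown because the peptides and Myl7 had the widest spread or the largest differences of the set. They are RefSeq sequences of GRCm38.p6, 5′ to 3′ on the strand of the gene. For Nppa and Myl7 they are the 250 bases before the start of the gene (chr4:148000472-148000721 on the plus strand and chr11:5898783-5899032 on the minus strand), and for Nppb 30 bases that hold its motif matches (chr4:147985795-147985824, plus strand). Those 30 bases precede the RefSeq start but lie in the 5′ UTR of the first exon as GENCODE annotates Nppb, whose start is the one given above. Capitals mark matches to a GATA motif (GATAA), an MCAT motif (CATTCC), each on either strand, or the CArG box of serum response factor. No searched motif overlapped another in these sequences.

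Nppa: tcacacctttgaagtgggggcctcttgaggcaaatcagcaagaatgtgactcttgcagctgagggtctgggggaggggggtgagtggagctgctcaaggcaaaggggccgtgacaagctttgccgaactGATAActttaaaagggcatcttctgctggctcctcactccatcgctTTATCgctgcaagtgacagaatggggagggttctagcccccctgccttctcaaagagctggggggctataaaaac
Nppb: GGAATGcagctGATAAatcagaGATAAccc
Myl7: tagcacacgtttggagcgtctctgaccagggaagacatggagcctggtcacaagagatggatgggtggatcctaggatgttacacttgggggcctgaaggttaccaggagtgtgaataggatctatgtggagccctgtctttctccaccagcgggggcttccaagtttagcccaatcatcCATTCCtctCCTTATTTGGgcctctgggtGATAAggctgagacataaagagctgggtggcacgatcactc

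Nppa held 2 GATA matches, at positions -121 and -75 from its start, and Nppb held 2 GATA matches and 1 MCAT match. Myl7 held 1 match of each kind, at positions -70 (MCAT), -61 (CArG) and -41 (GATA). Of the others, Ankrd1 had 1 GATA and 2 MCAT matches, in a window that lies before its RefSeq start but within the 5′ UTR of 1 of its GENCODE transcripts, Myh7 had 1 MCAT match at 1 of its 2 starts, and the windows of Rcan1 and Myl4 had none of these letters. Among 32851 RefSeq promoter windows of 250 bases, 22.6% held a GATA match and 4.28% at least 2, 12.6% held an MCAT match and 1.47% a CArG box. A match describes the letters only.

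None of the 7 genes passed the test in any comparison. The test was limma across all 12981 genes, two-sided, with Benjamini-Hochberg adjustment and a threshold of 0.05. With rivaroxaban against untreated 0 of 7 passed, where 2.46% of all genes passed (1.47% higher and 0.986% lower). With dabigatran against untreated it was again 0 of 7, where 1.88% of all genes passed (1.38% higher and 0.501% lower). Between rivaroxaban and dabigatran none of the 7 passed, where 0.077% of all genes did. At an unadjusted limma p under 0.05 there were 2, 1 and 0 of the 7 genes, against 17.2%, 14.7% and 8.43% of all genes. limma-voom on the recovered reads also called 0 of 7 in each comparison, with 2, 1 and 0 at an unadjusted p under 0.05. The median log2 difference of the 7 was -0.06 with rivaroxaban and 0.0005 with dabigatran, each against untreated, and -0.15 between rivaroxaban and dabigatran. The medians over all tested genes were 0.0050, 0.0026 and 0.0011. The comparisons with untreated share the same untreated libraries. Both libraries of a group lay below both of the other for 3 of the 7 genes with rivaroxaban against untreated (Nppb, Rcan1 and Myl7), as they did for 24.5% of all genes (50.6% in either direction). Between rivaroxaban and dabigatran this held for 2 of the 7 (Nppb and Myh7), against 20.4% of all genes. With dabigatran against untreated Myl7 was lower and Myh7 higher in this sense, where 20.8% of all genes were lower and 43.6% differed in either direction.

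**Figure D1:**
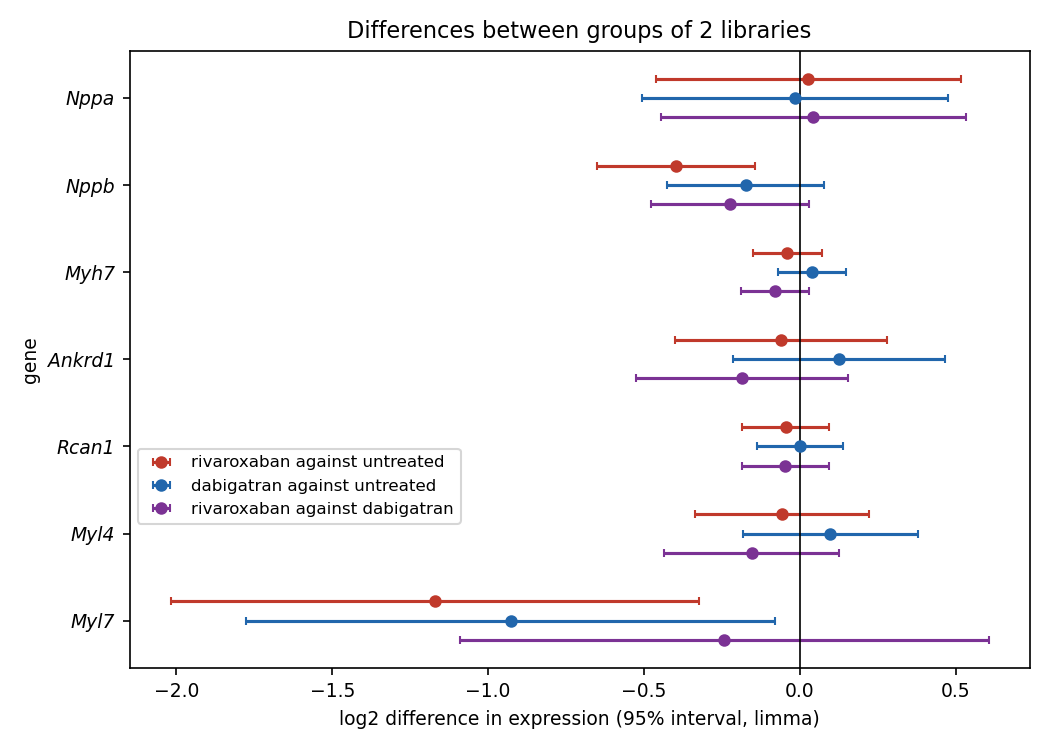
Log2 differences in expression of the 7 genes (x axis, log2 units) for rivaroxaban or dabigatran against untreated and for rivaroxaban against dabigatran. Points are differences between means of 2 libraries and bars are 95% intervals from limma. The intervals of Nppb and Myl7 with rivaroxaban and of Myl7 with dabigatran lie below 0, yet none of these differences passed after adjustment. Their SEs (0.11 and 0.38) are drawn toward the spread of other genes. The pooled within-group SDs of Nppb and Myl7 themselves were larger, 0.20 and 0.55, so a difference of 0 is not excluded.

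Nppa encodes atrial natriuretic peptide, which the ventricle also makes under load. Its level was 6.08 and 6.81 log2 CPM in the untreated libraries, 6.42 and 6.52 with rivaroxaban and 6.09 and 6.77 with dabigatran. The untreated and the dabigatran libraries each held 1 low and 1 high heart sample, and both rivaroxaban values lay between them, so all groups overlapped. Group means were 6.44 ± 0.52, 6.47 ± 0.07 and 6.43 ± 0.48 log2 CPM (SD, n = 2 each), in the same order. The log2 difference was 0.03 with rivaroxaban (95% interval -0.46 to 0.52) and -0.02 with dabigatran (-0.51 to 0.47), each against untreated, and 0.04 between the drugs (limma adjusted p = 0.965, 0.986 and 0.976). The intervals thus span ratios to untreated from 0.704 to 1.43. They rest on an SE of 0.22, drawn toward the spread of other genes. The pooled within-group SD of Nppa itself was larger, 0.41, so wider ratios are not excluded. Nppa had 1822 to 4747 reads per library, and the counting intervals of the untreated libraries, 64.6 to 70.7 CPM and 108 to 116 CPM, did not overlap. Counting intervals here are exact Poisson intervals at 95% and cover counting error only, since PCR copies cannot be told from molecules.

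Nppb encodes B-type natriuretic peptide, the ventricular peptide used as a blood marker of heart failure. It stood at 7.79 and 8.21 log2 CPM in the untreated libraries, 7.70 and 7.50 with rivaroxaban and 7.76 and 7.89 with dabigatran. Both rivaroxaban libraries were below every other library, and the dabigatran values overlapped the untreated ones. The mean went from 8.00 ± 0.30 in untreated to 7.60 ± 0.14 with rivaroxaban and 7.83 ± 0.10 log2 CPM with dabigatran (SD, n = 2 each). The rivaroxaban level was 0.759 of the untreated level (log2 -0.40, SE 0.11, 95% interval -0.65 to -0.15), which did not pass (limma adjusted p = 0.105). Without untreated replicate 8 this difference was -0.61 and passed (adjusted p = 0.0127), and without untreated replicate 9 it was -0.19. Over all alternatives its adjusted p lay between 0.0127 and 0.532. With dabigatran against untreated the log2 difference of Nppb was -0.17 (-0.43 to 0.08, limma adjusted p = 0.529), and with rivaroxaban against dabigatran it was -0.22 (-0.48 to 0.03, limma adjusted p = 0.64).

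The peptide genes did not keep a fixed ratio to each other. Per kilobase of exon, the Nppb level was 3.63 and 2.93 times that of Nppa in the untreated libraries, 2.69 and 2.19 times with rivaroxaban and 3.52 and 2.42 times with dabigatran. The lowest ratio was in rivaroxaban replicate 15, and the dabigatran libraries spanned most of the range. Across the 6 libraries the levels of Nppa and Nppb had a Pearson r of 0.48, a description over libraries that differ in treatment and depth.

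**Figure D2:**
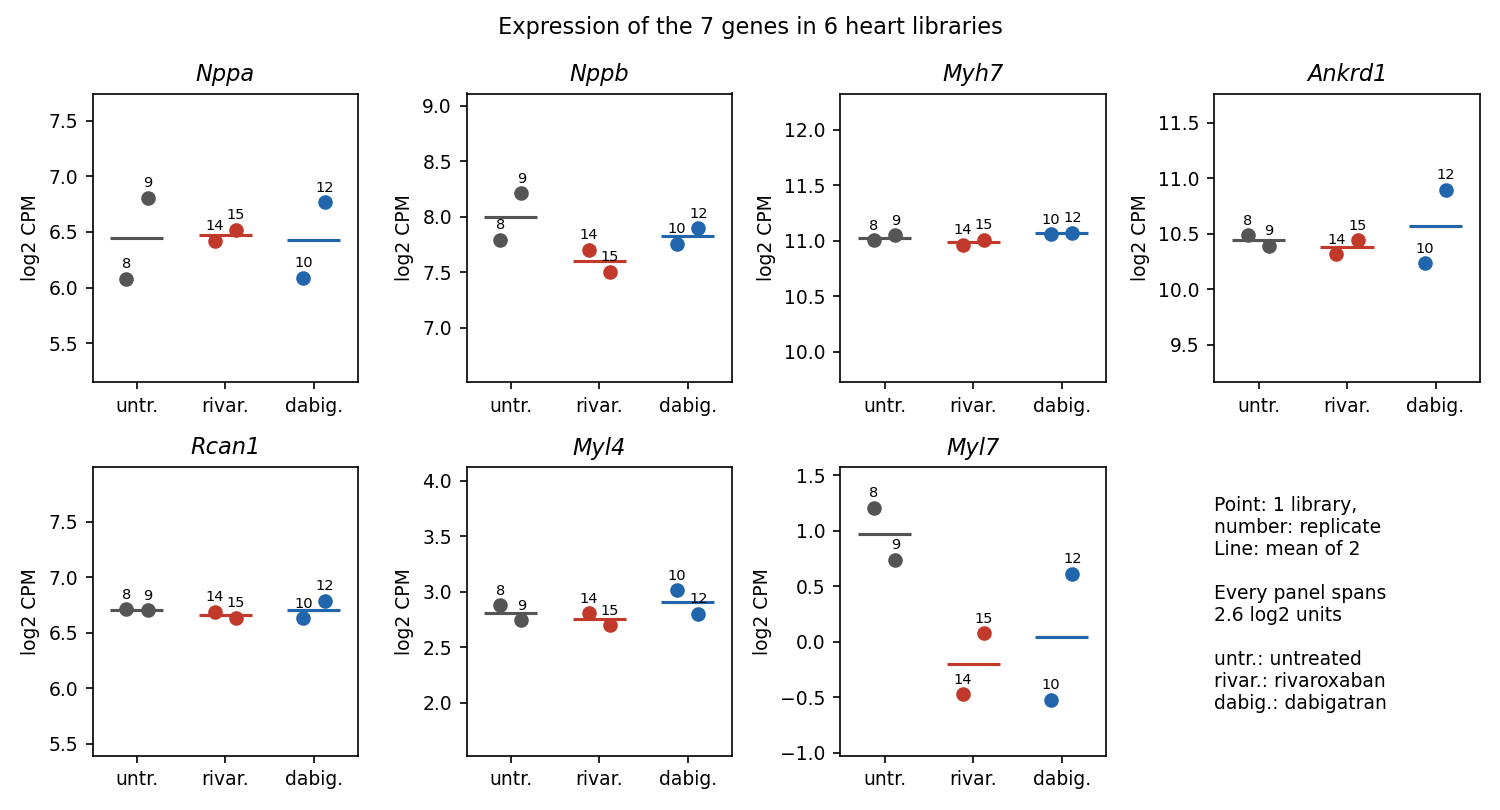
Expression of the 7 genes in each library (y axis, log2 CPM), by group. Points are libraries, numbers are replicates, lines are means of 2, and every panel spans the same log2 range. Nppa has the widest gap within the untreated pair and Myl7 within the dabigatran pair, Myh7 is nearly level, and Myl7 is highest in the untreated libraries.

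Around the peptides, 12 genes for their processing, receptors and cyclic GMP signalling were tested, and 0 rose and 0 fell in each comparison. The median log2 difference was 0.03 with rivaroxaban and 0.04 with dabigatran, each against untreated, with single genes between -0.26 and 0.22 over both. The lowest p-values belonged to Pde3a, a phosphodiesterase that cyclic GMP inhibits (0.22 between rivaroxaban and dabigatran, limma adjusted p = 0.38), and to Furin, a convertase that cleaves the B-type precursor (0.19 with dabigatran against untreated, limma adjusted p = 0.253). Npr1, the receptor of both peptides, differed by 0.02 with rivaroxaban and 0.22 with dabigatran (limma adjusted p = 0.951 and 0.316). Corin, the protease that activates the atrial peptide, differed by 0.15 in each (limma adjusted p = 0.48 and 0.556).

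Myh7 encodes beta myosin heavy chain, the slow isoform that rodents largely replace with alpha myosin, the product of the neighbouring Myh6, after birth. Its level was 11.00 and 11.05 log2 CPM in the untreated libraries, 10.96 and 11.01 with rivaroxaban and 11.06 and 11.07 with dabigatran. All 6 values spanned 0.11. The groups did not overlap for 43.6% of genes between dabigatran and untreated, in either direction, and for 39.7% between the drugs. The share with dabigatran above both other groups was not counted. Myh7 was higher in the dabigatran libraries than in all others. The log2 difference was -0.04 with rivaroxaban (95% interval -0.15 to 0.07) and 0.04 with dabigatran (-0.07 to 0.15), and -0.08 between the drugs (-0.19 to 0.03), with limma adjusted p = 0.71, 0.775 and 0.731. The intervals against untreated span ratios from 0.901 to 1.11.

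Per kilobase of exon, Myh7 made up 4.04% and 4.07% of the sum of Myh6 and Myh7 in the untreated libraries. The share was 4.04% and 4.10% with rivaroxaban and 4.22% and 4.19% with dabigatran. Alpha myosin thus supplied nearly all heavy chain mRNA in every library, with Myh6 at 5506 to 5796 CPM per kilobase against 232 to 250 for Myh7. Myh7 (ENSMUSG00000053093) lies on chr14:54970684-54994626, minus strand.

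On the opposite strand an antisense RNA gene, Mhrt, overlaps the 3′ end of Myh7 (chr14:54968678-54974349, plus strand). The library kit keeps strand, but whether the counting used it is not given in the sources used here, so reads of the overlapping part could have gone to either gene. Mhrt was at 3.72 and 4.18 log2 CPM in the untreated libraries, 4.28 and 4.21 with rivaroxaban and 4.72 and 4.48 with dabigatran. Dabigatran libraries were above untreated ones by 0.65 (95% interval 0.35 to 0.95, limma adjusted p = 0.0397), and rivaroxaban libraries by 0.30 (-0.0029 to 0.60, adjusted p = 0.296). Mhrt was chosen for its overlap with Myh7 and is not one of the set. Its call with dabigatran was lost without untreated replicate 8 (0.42), dabigatran replicate 10 (0.53) or either rivaroxaban replicate, and with only the groups compared in the fit. Over its alternatives the adjusted p lay between 0.0109 and 0.243. Gm13054, antisense to Nppa, had 3 to 11 reads per library.

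The adult partners of these sarcomere genes also gave no call. Of 10 tested adult sarcomere and calcium-cycling genes 0 rose and 0 fell in each comparison. The median log2 difference was -0.04 with rivaroxaban and -0.0028 with dabigatran against untreated, and -0.05 between the drugs. The lowest p-values were those of Tnnt2, cardiac troponin T (-0.13 with rivaroxaban, limma adjusted p = 0.297), and of Ryr2, the calcium release channel (0.11 with dabigatran, limma adjusted p = 0.32). Myh6 itself differed by -0.05 with rivaroxaban and -0.02 with dabigatran (limma adjusted p = 0.771 and 0.947).

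Ankrd1 encodes a stretch-responsive ankyrin repeat protein of the sarcomere and nucleus (ENSMUSG00000024803, chr19:36111961-36120099, minus strand). It stood at 10.49 and 10.39 log2 CPM in the untreated libraries, 10.32 and 10.44 with rivaroxaban and 10.24 and 10.90 with dabigatran. Dabigatran replicate 12 had the highest and dabigatran replicate 10 the lowest level of the 6, so every pair of groups overlapped. In CPM these were 1908 and 1207, from 83264 and 32324 reads. The log2 difference was -0.06 with rivaroxaban (95% interval -0.40 to 0.28, limma adjusted p = 0.875) and 0.13 with dabigatran (-0.21 to 0.47, adjusted p = 0.761), and -0.19 between the drugs (-0.53 to 0.15, adjusted p = 0.796). These intervals rest on an SE of 0.15, drawn toward the spread of other genes. The pooled within-group SD of Ankrd1 itself was larger, 0.28, so wider differences are not excluded. Without dabigatran replicate 10 the dabigatran difference of Ankrd1 was 0.46 and passed (adjusted p = 0.0209), and without dabigatran replicate 12 it was -0.20. Its adjusted p over all alternatives lay between 0.0209 and 0.893.

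Rcan1 encodes an inhibitor of the phosphatase calcineurin and is itself a target of calcineurin and NFAT signalling (ENSMUSG00000022951, chr16:92391953-92470867, minus strand). Its values were 6.71 and 6.71 log2 CPM in the untreated libraries, 6.69 and 6.63 with rivaroxaban and 6.63 and 6.79 with dabigatran. Rivaroxaban libraries were below untreated ones by a margin of hundredths, and dabigatran libraries lay on both sides. The log2 difference was -0.05 with rivaroxaban (95% interval -0.18 to 0.09) and 0.00054 with dabigatran (-0.14 to 0.14), and -0.05 between the drugs (-0.19 to 0.09), with limma adjusted p = 0.745, 0.998 and 0.892. Rcan1 has alternative first exons, and the table gives 1 value for the gene, so its isoforms were not separated.

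Of 14 tested calcineurin, NFAT and RCAN genes, 1 fell with each drug against untreated (of all genes, 0.986% and 0.501%) and 0 rose. The gene was Akap5, an anchor that holds calcineurin and protein kinase A at the membrane. Akap5 was at 3.36 and 3.48 log2 CPM in the untreated libraries, 2.32 and 1.91 with rivaroxaban and 1.84 and 2.55 with dabigatran. It differed from untreated by -1.31 (SE 0.22, limma adjusted p = 0.0113) with rivaroxaban and -1.23 (SE 0.22, adjusted p = 0.0194) with dabigatran. Both calls were lost without either untreated replicate, and without rivaroxaban replicate 15 or dabigatran replicate 10, with log2 differences between -1.58 and -0.87 over the libraries left out and both drugs. The catalytic subunits Ppp3ca and Ppp3cb differed by -0.02 each with rivaroxaban (limma adjusted p = 0.875 and 0.855), and Rcan2 by -0.08 (adjusted p = 0.421). The median of the 14 genes was -0.02 with rivaroxaban and 0.03 with dabigatran, and between the drugs 0 of the 14 passed.

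The wider fetal and stress list gave few calls. Of 20 tested genes, 0 passed with rivaroxaban against untreated and 0 between the drugs, and 1 fell with dabigatran (of all genes, 0.501%). The median log2 difference was -0.06 with each drug. The gene that fell was Hspb7, a small heat shock protein of heart muscle, at 11.99 and 11.78 log2 CPM in untreated, 11.63 and 11.58 with rivaroxaban and 11.47 and 11.59 with dabigatran libraries. Its log2 difference was -0.35 with dabigatran (SE 0.07, limma adjusted p = 0.0369) and -0.28 with rivaroxaban (adjusted p = 0.0776). The dabigatran call was lost without untreated replicate 8, dabigatran replicate 10 or either rivaroxaban replicate, with a range of -0.46 to -0.25. Csrp3, a muscle LIM protein of the stretch sensor, differed by -0.13 with rivaroxaban (limma adjusted p = 0.235). Acta2, the smooth muscle actin of the embryonic heart, differed by -0.01 with rivaroxaban and 0.13 with dabigatran (limma adjusted p = 0.965 and 0.52). Tnni1, the fetal troponin I, and Ankrd2, a relative of Ankrd1, had 7 to 41 reads per library and were not tested.

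Of 11 tested cardiac transcription factors, 1 fell with rivaroxaban (of all genes, 0.986%), Mef2c. This MADS-box factor of heart muscle was at 6.53 and 6.52 log2 CPM in untreated, 6.29 and 6.19 with rivaroxaban and 6.34 and 6.35 with dabigatran libraries. The log2 difference was -0.29 with rivaroxaban (SE 0.06, limma adjusted p = 0.0271) and -0.18 with dabigatran (adjusted p = 0.154). The rivaroxaban call was lost without any 1 of the 4 untreated and rivaroxaban libraries (-0.33 to -0.24). It was also lost when libraries were centred on cardiomyocyte markers. Gata4, whose product binds GATA motifs, differed by -0.13 and -0.09 (limma adjusted p = 0.29 and 0.56), and Tead1, whose product binds MCAT motifs, by -0.0053 and 0.05 (adjusted p = 0.973 and 0.722), with rivaroxaban and dabigatran. The median of the 11 was 0.03 with rivaroxaban and -0.07 with dabigatran, and 0 passed with dabigatran or between the drugs.

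Myl4 encodes the atrial essential light chain of myosin, which the embryonic ventricle also makes (ENSMUSG00000061086, chr11:104550663-104595753, plus strand). It was at 2.88 and 2.75 log2 CPM in the untreated libraries, 2.81 and 2.70 with rivaroxaban and 3.02 and 2.80 with dabigatran, with 188 to 302 reads per library. All groups overlapped. The log2 difference was -0.06 with rivaroxaban (95% interval -0.34 to 0.22) and 0.10 with dabigatran (-0.18 to 0.38), and -0.15 between the drugs (-0.43 to 0.13), with limma adjusted p = 0.853, 0.779 and 0.794.

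Myl7 encodes the atrial regulatory light chain (ENSMUSG00000020469, chr11:5896637-5898782, minus strand), and it had the largest differences of the 7 genes. Its level was 1.21 and 0.74 log2 CPM in the untreated libraries, -0.47 and 0.08 with rivaroxaban and -0.52 and 0.61 with dabigatran. For each drug alone, 24.5% of genes were below both untreated libraries with rivaroxaban and 20.8% with dabigatran. The share below with both drugs was not counted. Myl7 was lower in all 4 treated libraries than in both untreated ones. The mean was 0.97 ± 0.33 in untreated, -0.20 ± 0.39 with rivaroxaban and 0.04 ± 0.80 log2 CPM with dabigatran (SD, n = 2 each). Rivaroxaban differed from untreated by -1.17 (SE 0.38, 95% interval -2.02 to -0.32), a ratio of 0.444, which did not pass (limma adjusted p = 0.147). Dabigatran differed from untreated by -0.93 (-1.78 to -0.08, adjusted p = 0.291) and rivaroxaban from dabigatran by -0.24 (-1.09 to 0.61, adjusted p = 0.908).

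The reads behind Myl7 were few: 64 and 52 in the untreated, 24 and 29 in the rivaroxaban and 17 and 64 in the dabigatran libraries. Counting intervals were 1.20 to 2.11 CPM for untreated replicate 9 and 1.13 to 1.87 CPM for dabigatran replicate 12, so these 2 libraries were not distinguishable at this depth. The interval of untreated replicate 9 also overlapped that of rivaroxaban replicate 15, 0.665 to 1.43 CPM. The interval of untreated replicate 8, 1.73 to 2.87 CPM, lay above those of both rivaroxaban libraries, the other being 0.423 to 0.981 CPM. With 1 CPM added before the log2, the rivaroxaban difference was -0.68. Without dabigatran replicate 10 the dabigatran difference was -0.36, and without dabigatran replicate 12 it was -1.495. In whole tissue fewer cells of a type and less RNA per cell cannot be told apart.

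Set against their ventricular counterparts, both atrial light chains were traces. Per kilobase of exon, Myl7 was 0.0686% and 0.0497% of the sum of Myl7 and Myl2 in the untreated libraries, 0.0223% and 0.0314% with rivaroxaban and 0.0199% and 0.0467% with dabigatran. Myl4 was 0.0364% to 0.0437% of the sum of Myl4 and Myl3 over the 6 libraries. The ventricular light chain exceeded the atrial one by orders of magnitude in every library.

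Other genes known from atrial muscle differed in direction among themselves. Of 11 tested atrial genes, 2 rose and 1 fell with rivaroxaban, 1 rose with dabigatran and 0 passed between the drugs. Of all genes, 1.47% rose and 0.986% fell with rivaroxaban, and 1.38% rose with dabigatran. The median log2 difference of the 11 was -0.06 and -0.01 against untreated. Kcna5, on the atrial list, encodes a voltage-gated potassium channel. It was at 4.96 and 4.90 log2 CPM in untreated, 5.91 and 5.97 with rivaroxaban and 5.86 and 5.74 with dabigatran libraries. It rose by 1.01 with rivaroxaban (SE 0.07, limma adjusted p = 5.87e-05) and by 0.87 with dabigatran (SE 0.07, adjusted p = 1.25e-04), and both calls held with any 1 library left out. Gja5, connexin 40 of atrial and conduction muscle and also of arterial endothelium, rose by 0.69 with rivaroxaban (SE 0.15, limma adjusted p = 0.0347), and Kcnj3, a subunit of the acetylcholine-gated potassium channel, fell by 0.37 (SE 0.06, adjusted p = 0.0138). Those 2 calls were lost without untreated replicate 8 or either rivaroxaban replicate, with ranges of 0.52 to 0.86 for Gja5 and -0.44 to -0.31 for Kcnj3. The atrial genes Mybphl and Fgf12 had 1 to 18 reads per library and were not tested. The summed level of the 14 listed atrial genes was 1140 to 1275 CPM in untreated, 1212 to 1268 with rivaroxaban and 1174 to 1240 with dabigatran libraries, so the groups overlapped. Nearly all of that sum came from genes other than Mybphl and Fgf12. Whether the sum or Kcna5 follows the amount of atrial muscle in these samples was not tested.

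Of 10 tested ventricular genes, 3 fell with rivaroxaban and 2 with dabigatran, and 0 rose. Of all genes, 0.986% fell with rivaroxaban and 0.501% with dabigatran. This list, like the others, was chosen with earlier results of these data known. The median log2 difference of the 10 was -0.19 and -0.21, where that of all genes was 0.0050 and 0.0026. Kcnj2, an inward rectifier potassium channel, was at 5.95 and 5.76 log2 CPM in untreated, 5.14 and 5.12 with rivaroxaban and 5.33 and 5.39 with dabigatran libraries. It fell by 0.72 with rivaroxaban (SE 0.07, limma adjusted p = 8.44e-04) and by 0.49 with dabigatran (SE 0.07, adjusted p = 0.01). Irx3, a transcription factor of the ventricular conduction system, fell by 0.46 and 0.51 (SE 0.08 each, limma adjusted p = 0.016 and 0.0115). Irx4, a factor that keeps ventricular identity, fell by 0.38 with rivaroxaban (SE 0.08, limma adjusted p = 0.0473) and differed by -0.36 with dabigatran (adjusted p = 0.0618). The light chains Myl2 and Myl3 differed by -0.09 and -0.06 with rivaroxaban (limma adjusted p = 0.485 and 0.628).

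These ventricular calls varied in how far they rested on single libraries. The Kcnj2 call with rivaroxaban held with any 1 library left out. With dabigatran the calls of Kcnj2 and Irx3 were lost without untreated replicate 8 (-0.40 and -0.49) or dabigatran replicate 10. The Irx3 call with rivaroxaban was lost without any 1 of the untreated and rivaroxaban libraries (-0.47 to -0.44), and that of Irx4 without either untreated replicate or rivaroxaban replicate 15 (-0.48 to -0.27), with a filter at 2 log2 CPM and with centring on cardiomyocyte markers.

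**Figure D3:**
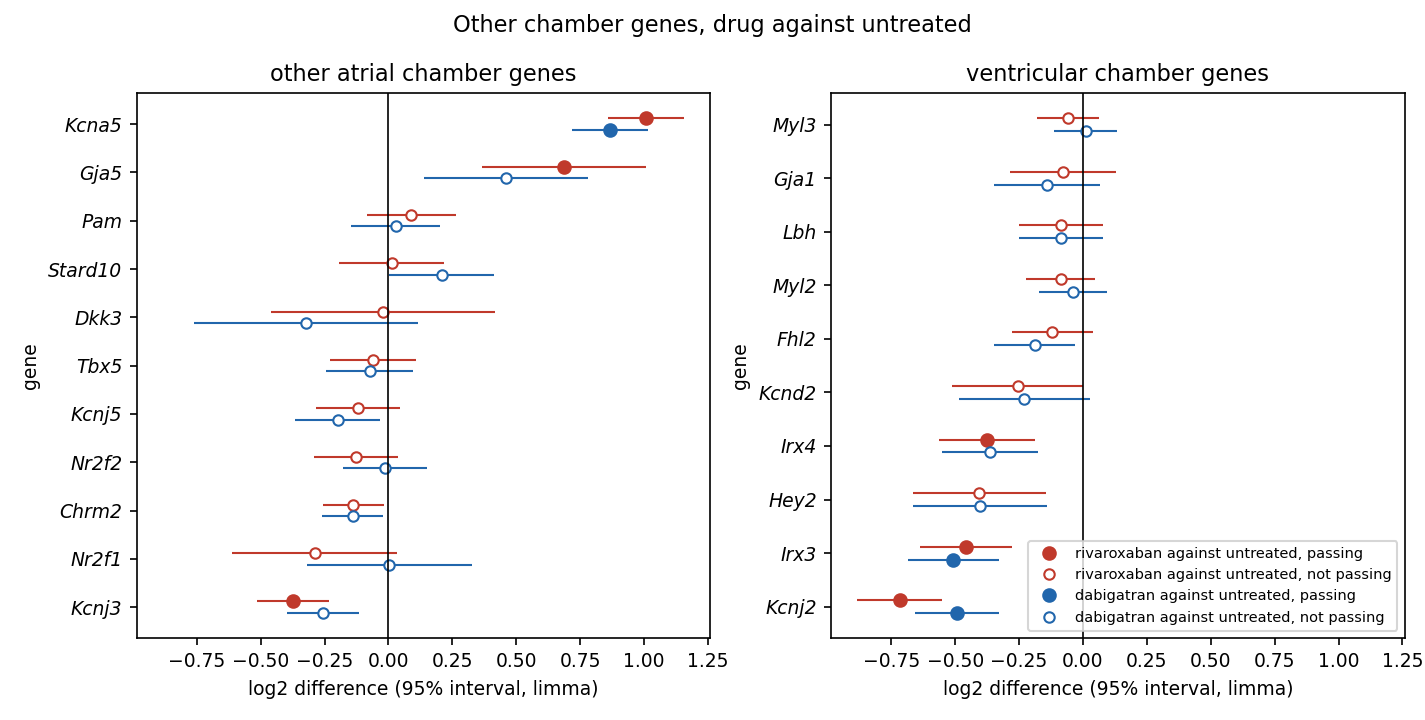
Log2 differences of other atrial genes (left) and ventricular genes (right), each drug against untreated (x axis, log2 units). Points are differences between means of 2 libraries, bars are 95% intervals from limma, and filled points passed the adjusted threshold. Kcna5 stands about 1 log2 unit above untreated with rivaroxaban, while Kcnj2 and Irx3 lie below untreated with both drugs.

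The genes of the set differed widely in how much they varied between libraries of a group. The pooled within-group SD was 0.41 for Nppa, 0.20 for Nppb, 0.03 for Myh7, 0.28 for Ankrd1, 0.07 for Rcan1, 0.11 for Myl4 and 0.55 for Myl7 (log2 CPM, 3 degrees of freedom each). Against genes within 0.5 log2 CPM of the same level, Nppa stood at the 99.8th percentile of 1550 genes, Nppb at the 97.7th of 596 and Ankrd1 at the top of 61, and Myl7 stood at the 95.7th of 774. Rcan1, Myl4 and Myh7 stood at percentiles 65.2, 43.4 and 11.4. Nppa, Nppb, Ankrd1 and Myl7 thus varied more within groups than most genes of their level. For Ankrd1 this came mainly from the dabigatran pair (SD 0.47, against 0.07 in untreated and 0.09 with rivaroxaban). For Nppa it came from the untreated and dabigatran pairs (0.52 and 0.48, against 0.07 with rivaroxaban).

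**Figure D4:**
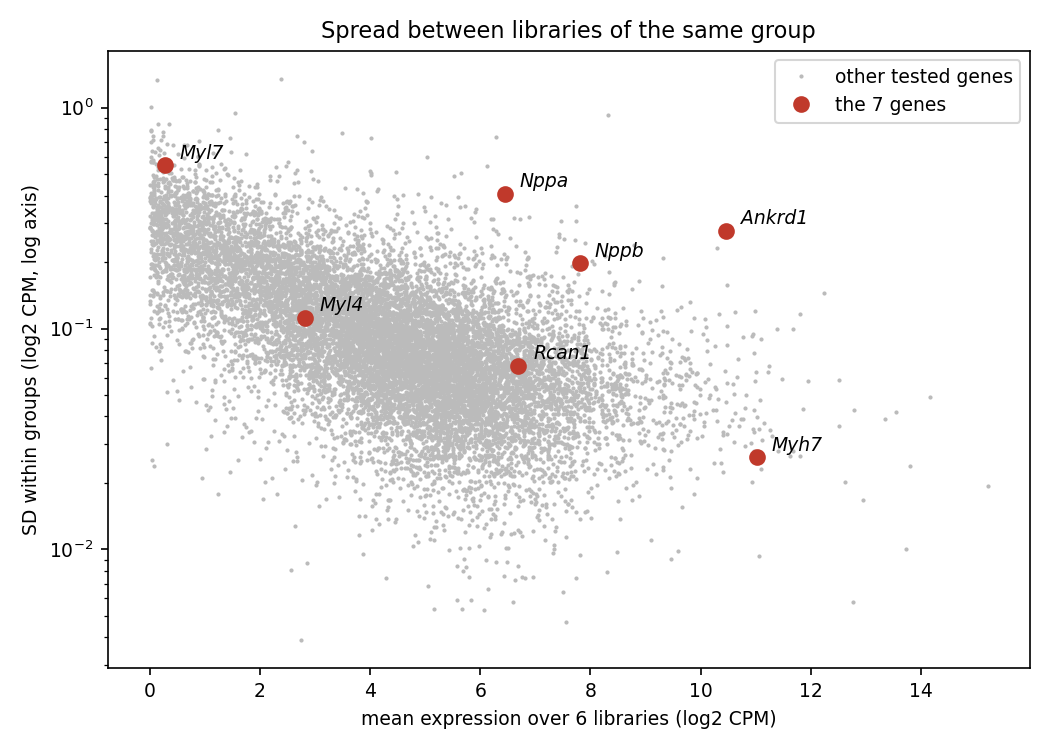
Within-group SD (y axis, log2 CPM on a log axis) against mean expression over 6 libraries (x axis, log2 CPM) for all tested genes, with the 7 genes in red. Nppa, Nppb, Ankrd1 and Myl7 lie toward the upper edge of genes of their level, and Myh7 lies among the steadiest.

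Ranked by level per kilobase of exon, the untreated order was Ankrd1 at 482 ± 23 CPM per kilobase (SD, n = 2), Nppb at 331 ± 68, Myh7 at 242 ± 5.3, Nppa at 104 ± 36, Rcan1 at 33.9 ± 0.11, Myl7 at 3.26 ± 0.76 and Myl4 at 1.503 ± 0.10. No neighbours in that order overlapped in the untreated libraries. With rivaroxaban Nppb and Myh7 overlapped (232 to 266 and 232 to 239 CPM per kilobase), as did Myl7 and Myl4 (1.12 to 1.68 and 1.39 to 1.499). With dabigatran Myl7 and Myl4 overlapped as well (1.08 to 2.49 and 1.49 to 1.73). The length was the union of annotated exons, which for Myl4 joins isoforms of unequal length and so lowers its value.

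The genes with the most similar pattern over the 6 libraries were named by Pearson r, with no test, since over 6 points many genes reach a high r. For Nppa they were Irgm1 (r = 0.996), an interferon-inducible GTPase, Kcnj11 (0.983), the pore of the ATP-sensitive potassium channel, and Ric3 (0.981), with 22 genes at 0.95 or above. For Ankrd1 they were Lrrk2 (0.973), a kinase, Xkr6 (0.964) and Nadsyn1 (0.963), an NAD synthetase, with 8 such genes. Rcan1 was most like Adss (0.988), Pdgfra (0.988) and Zdhhc3 (0.984), with 19 such genes. Myh7 was most like Gm14440 (0.997), Ptgs1 (0.99) and Gm14288 (0.983), with 17 such genes. Myl7 was most like 4931406C07Rik (0.995), Tube1 (0.989) and Ppp3r1 (0.981), the last the regulatory subunit of calcineurin, with 28 such genes. Within the set, Ankrd1 and Rcan1 had the highest r (0.84), both being highest in dabigatran replicate 12, the deepest library, and Nppa and Myl4 the lowest (-0.75).

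Cell type markers were read beside these genes. The 11 tested cardiomyocyte markers gave 0 calls in each comparison, with a summed level of 102604 to 108158 CPM over the 6 libraries. Csrp3 and Tnnt2 had the lowest p-values among them. Markers of the mesothelium, which covers the heart, moved with treatment. Of 9, 7 fell and 1 rose with rivaroxaban and 3 fell and 1 rose with dabigatran, the riser being Wt1 in each. Of all genes, 0.986% fell and 1.47% rose with rivaroxaban, and 0.501% fell and 1.38% rose with dabigatran. Msln, Upk3b, Krt19 and Gpm6a, all markers of that layer, differed by -1.23, -0.93, -1.45 and -0.73 with rivaroxaban (limma adjusted p = 8.14e-04, 0.00285, 0.00551 and 0.0113). The mesothelial sum was 89.8 to 94.97 CPM in untreated, 49.7 to 58.7 with rivaroxaban and 63.2 to 65.5 with dabigatran libraries, no marker being at 0. Its part in the differences of Nppb and Myl7, which were also lowest in treated libraries on average, was not tested. Of 10 endothelial markers, Eng rose and Emcn fell with rivaroxaban and Eng and Flt1 rose with dabigatran. Of 9 smooth muscle markers Myh11 fell with rivaroxaban, and Slc4a1, the tested red cell marker, rose with dabigatran. Slc4a1 had 23 and 7 reads in untreated (0.81 and 0.22 CPM) and 68 and 74 with dabigatran (2.54 and 1.70 CPM). With rivaroxaban it had 66 and 36 reads (1.81 and 1.23 CPM), also above untreated. That log2 difference, 1.67, did not pass (limma adjusted p = 0.0982). The calls of Msln and Upk3b with rivaroxaban held with any 1 library left out. Those of Krt19, Gpm6a, Eng, Flt1 and Myh11 were lost without untreated replicate 8, among others. The call of Emcn was lost without rivaroxaban replicate 15, and that of Slc4a1 without untreated replicate 9, among others. For Wt1 and the mesothelial calls not named here, no fits with libraries left out were recorded. The 10 fibroblast and 10 macrophage markers gave 0 calls. Cx3cr1, a chemokine receptor of resident macrophages, differed by -0.91 with rivaroxaban (limma adjusted p = 0.113), and it passed without dabigatran replicate 10 or 12 or with only the groups compared in the fit (adjusted p = 0.0221, 0.0233 and 0.022). Lum, a collagen-binding proteoglycan of fibroblasts, differed by -0.27 with dabigatran (adjusted p = 0.117) and passed without dabigatran replicate 12 (-0.38, adjusted p = 0.0367). Skeletal muscle markers also gave 0 calls, and of these Casq1 was at 5.10 log2 CPM in untreated replicate 8 and between 3.34 and 4.12 in the other libraries. Casq1 differed by -0.42 with dabigatran and passed without untreated replicate 9 (-1.31, limma adjusted p = 0.00203), while Tnni2 had 50 to 93 reads. The infarct genes Spp1, S100a8, S100a9 and Il1b were at or below 0.664 CPM in every library.

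Libraries held 27176892 to 43798222 reads in the listed genes. Replicates were not copies of each other, with a chi-square per gene of 5.88 to 8.84 over 12347 genes, where counting error alone would give about 1. Pairs of a rivaroxaban and a dabigatran library had 7.07 to 11.3, which overlaps the replicates. Pairs of a treated and an untreated library had 10.8 to 17.0.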

How the data were processed

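The authors deposited 1 table of log2 CPM values, scaled by TMM per the file headers. Per the submitters' processing notes, bcl2fastq, FastQC, Trim Galore, STAR and edgeR were used with the build mm10, and the counter is not given in the sources used here, nor are its strand setting and annotation. Every library has the same lowest value (-4.04 log2 CPM), so low genes are drawn toward that floor. Whole reads were recovered from the steps of the linear values (100% whole within 0.02 reads). All 6 libraries were grouped by their treatment label, and the replicate numbers differ between groups. A model of 3 group means (limma 3.58.1, R 4.3.3, eBayes with a mean-variance trend) was fitted to 12981 genes with a mean of at least 0 log2 CPM, with 3 residual and 7.75 prior degrees of freedom. It was checked on simulated data. Genes and lists were chosen with earlier results of these data known: of 199 entries in 20 lists, 171 matched by symbol and the rest were not used. From each other list the text names called genes, at most 4, or else the 2 lowest p-values, and others only as background to the set. The members' partners (Npr1, Corin, Ppp3ca, Ppp3cb, Rcan2, Acta2, Gata4, Tead1, Myh6, Myl2, Myl3) and Mhrt were chosen after values were seen. Coordinates and exon lengths are from GENCODE M21 on GRCm38, which mm10 stands for, and 8 of the 9 genes matched the RefSeq promoter table. Alternatives covered the trend, the filter, the added CPM, the scaling, the groups in the fit and each library left out. An item of the lists is not reported here, and sums and counts include it.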

Additional observations from a re-analysis of the deposited data

How the results depend on the processing

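Of 270 values for the 7 genes under alternative settings, 248 kept their direction and side of the threshold, 20 changed sign and 2 passed. Centring each library on cardiomyocyte markers gave 0.0010 for Myh7 with rivaroxaban, and for Rcan1 -0.011 with dabigatran, each against untreated, and 0.0068 between the drugs. With 1 library left out, differences with rivaroxaban against untreated lay between -0.34 and 0.39 for Nppa, -0.12 and 0.0031 for Ankrd1 and -0.12 and 0.0094 for Myl4. With dabigatran against untreated they lay between -0.38 and 0.35 for Nppa, -0.38 and 0.035 for Nppb, -0.20 and 0.46 for Ankrd1, -0.078 and 0.079 for Rcan1, -0.0091 and 0.20 for Myl4, and -1.31 and 0.46 for Casq1. Between the drugs they lay between -0.30 and 0.38 for Nppa, -0.52 and 0.14 for Ankrd1, -0.13 and 0.032 for Rcan1 and -0.81 and 0.32 for Myl7. The 2 that passed were Nppb with rivaroxaban (-0.61, without untreated replicate 8) and Ankrd1 with dabigatran (0.46, without dabigatran replicate 10).

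Over all genes, 319, 244 and 10 passed with rivaroxaban and dabigatran against untreated and between the drugs. Without the mean-variance trend 0 passed in each, with 1938, 1728 and 984 at an unadjusted limma p under 0.05, so every call named above was lost there. With 1 library left out the counts lay between 61 and 410, 73 and 270, and 0 and 20. The lowest counts came without rivaroxaban replicate 15 and without untreated replicate 8, and between the drugs 0 passed without either rivaroxaban replicate or dabigatran replicate 10. Between the drugs 1 passed with a filter at 2 log2 CPM, 0 with centring on cardiomyocyte markers and 6 with only the groups compared. limma-voom, chosen after seeing the data, gave 314, 235 and 8. Alternative values of the genes named from other lists were also added after seeing the data: of 504, 111 lost a call, 5 gained one and 1 changed sign, and the cause was not tested. Those gained were 3 of Cx3cr1 with rivaroxaban and 1 each of Lum and Casq1 with dabigatran. Where 1 library was left out, the remaining one was assumed to vary like the other groups. The planned edgeR and DESeq2 fits were not run; limma-voom on the recovered reads was run instead. Myl7 has no value with the filter at 2. No paired analysis was possible because the groups share no replicate number.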
